A study of Mus musculus with 4 samples.

Results

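Replication timing was read at the loci of 8 genes that mark fibroblasts and other mesenchymal cells: the fibrillar collagen genes Col1a1, Col1a2 and Col3a1, the matrix glycoprotein genes Fn1, Sparc and Postn, the intermediate filament gene Vim and the surface glycoprotein gene Thy1. A locus was made of all array probes whose midpoint lay within 100 kb of the gene's position on mouse build mm9, whatever their values. The 8 loci held 126 probes, 13 to 19 each, of 169660 usable probes on autosomes and X, and no probe of a locus was lost to a spot flag. For comparison, the whole genome gave 12000 windows of 200 kb, the length of a locus, with a median of 15 probes.

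Fibroblasts secrete type I collagen, a trimer of the Col1a1 and Col1a2 products, together with type III collagen and fibronectin, and these assemble into the fibres of connective tissue. Replication timing is the order in which domains of the genome are copied in S phase; active, gene-rich chromatin tends to be copied early and silent, gene-poor chromatin late, and genes that a lineage uses often lie in domains that are early in that lineage. Suv4-20h enzymes place the higher methylation states on lysine 20 of histone H4, a mark associated with heterochromatin.

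The samples were mouse embryonic fibroblasts (MEF), cultured from embryos, in 4 groups of 1 array: control cells, cells with a deleted floxed SUV4-20H1 allele (KO), a suv4-20h mutant labelled non-induced, and one labelled induced. Per the labels, the deletion was made with 4-hydroxytamoxifen; how the mutant was induced, whether it carries the same allele, whether the control cells were treated, and the state of the second Suv4-20h gene in any group are not given in the sources used here. All groups carry the same line name in their characteristics, while the protocols use another number. Cells took up the nucleotide analogue BrdU (50 µM) for 1 hour and were sorted by DNA content into cells early and cells late in S phase. BrdU-labelled DNA of each was amplified and put on 1 array, early DNA in green and late DNA in red. Timing is given as log2 of early divided by late signal, with 0 at the autosomal probe median of that array, so a higher value means earlier replication. Control and KO shared 1 slide, and both mutant arrays a second slide. With 1 array per group there is no spread between cultures and no test between conditions: errors below are standard errors (SE) over the probes of a locus. RNA was not measured, so the timing of these loci is no check of the cells' identity, and the genes' expression is not known here. Of autosomal spots, 89.1 to 94.9% per array were well above background in both channels; of the members' probes, 84.1 to 93.7% were.

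Promoter sequences were at hand for 5 of the 8 genes, from RefSeq on build GRCm38, which is not the build of the arrays. The 250 bases before the start site are shown for the 3 genes called later in KO cells below, Col1a2, Col3a1 and Postn, and for Vim, which was not, since they set the sequence at the start of each gene beside its timing; capitals mark CG pairs. They lie at chr6:4505368-4505617 (plus strand), chr1:45311288-45311537 (plus), chr3:54359017-54359266 (plus) and chr2:13574061-13574310 (plus).
Col1a2: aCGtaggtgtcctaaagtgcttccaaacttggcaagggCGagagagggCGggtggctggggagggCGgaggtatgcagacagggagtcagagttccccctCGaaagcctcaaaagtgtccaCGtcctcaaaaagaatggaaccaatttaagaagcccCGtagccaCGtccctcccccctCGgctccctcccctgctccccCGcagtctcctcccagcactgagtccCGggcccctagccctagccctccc
Col3a1: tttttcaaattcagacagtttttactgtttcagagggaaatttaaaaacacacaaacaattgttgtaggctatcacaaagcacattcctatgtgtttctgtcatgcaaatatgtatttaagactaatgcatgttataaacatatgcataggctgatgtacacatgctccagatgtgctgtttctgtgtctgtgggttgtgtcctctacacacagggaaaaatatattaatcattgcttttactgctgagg
Postn: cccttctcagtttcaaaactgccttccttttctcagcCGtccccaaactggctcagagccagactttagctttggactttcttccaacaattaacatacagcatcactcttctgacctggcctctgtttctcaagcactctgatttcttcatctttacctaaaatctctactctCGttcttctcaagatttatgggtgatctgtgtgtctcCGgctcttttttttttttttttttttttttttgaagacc
Vim: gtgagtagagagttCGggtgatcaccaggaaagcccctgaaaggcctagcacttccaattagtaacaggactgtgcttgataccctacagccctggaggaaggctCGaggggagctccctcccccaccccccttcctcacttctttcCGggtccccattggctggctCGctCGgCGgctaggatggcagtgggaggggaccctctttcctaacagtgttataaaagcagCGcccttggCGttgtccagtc

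The Col1a2 stretch held 11 CG pairs and 62.0% G and C, while the Col3a1 stretch held 0 CG pairs and 35.2% G and C. Postn had 3 CG pairs, Sparc (chr11:55420081-55420330, minus strand) had 4 and Vim had 8, against a median of 6 over the 32851 promoters of that length in the table. Of all promoters, 33.5% held more CG pairs than that of Col1a2 and 92.1% more than that of Col3a1. The letters TATAAA, searched on both strands, were in the stretches of Vim, 32 bases before its start, and of Col3a1, 117 bases before it, and in 12.4% of all promoters. CCAAT, searched likewise and not overlapping TATAAA, was in those of Col1a2 and Vim and in 33.8% of all promoters. Of the 3 genes called later in KO cells, Col1a2 was thus above the median number of CG pairs and Col3a1 and Postn were below it.

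In control cells, 7 of the 8 loci replicated early, and Postn stood apart. Timing there was 1.16 ± 0.17 (SE over 17 probes) at Thy1, 1.09 ± 0.22 (15 probes) at Col1a1, 1.02 ± 0.09 (15 probes) at Col1a2, 0.996 ± 0.11 (18 probes) at Vim, 0.86 ± 0.10 (19 probes) at Col3a1, 0.72 ± 0.11 (15 probes) at Sparc, 0.67 ± 0.16 (14 probes) at Fn1 and 0.04 ± 0.07 (13 probes) at Postn. In that order, only the step from Fn1 to Postn, of 0.63, was over 2 times its own SE (0.17). The top of that order changed with the background correction and the probes used: with normexp background correction, Thy1 had 0.64 and Col1a1 0.47, and Col1a2 was highest at 0.84, while the probes that passed background on every array gave Thy1 0.79 and Col1a1 0.56, below Col1a2 at 1.02. All 8 loci were above 0 in control cells, where 43.6% of windows were, and 7 lay above the 75th percentile of windows. Thy1 encodes a surface glycoprotein also known as CD90, Sparc a secreted protein that binds collagen, and Vim the filament protein vimentin. Their percentiles ran from 57.8 at Postn to 99.0 at Thy1, with a median of 92.2.

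On the other arrays the same 7 loci stayed above 0 and Postn lay below it: its value was -0.72 for KO, -0.23 for non-induced and -0.46 for induced. The median of the 8 loci was 0.71 for KO, 0.84 for non-induced and 0.95 for induced, against 0.93 for control. In that order, 42.5, 42.8 and 41.1% of windows were above 0 on the arrays other than control. The arrays differed in spread: the 10th to 90th window percentile spanned 1.81 on the control array and 2.70 on the induced one. By the loci's median percentile of windows, control ranked highest at 92.2, followed by non-induced at 85.7, induced at 82.6 and KO at 77.9. The slightly higher log2 median on the induced array was thus not a higher place among its windows. The members above the 75th percentile numbered 5 for KO and 6 on either mutant array. The last step of the order, down to Postn, was over 2 times its SE on every array, at 0.98 for KO, 0.63 for non-induced and 1.01 for induced, and no other step was. The earliest locus was Thy1 in control, KO and induced cells and Col3a1 in non-induced cells, where Thy1 came after Vim.

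By role, the levels on the 4 arrays were as follows. Taken as control, KO, non-induced and induced, Col1a1 had timing values of 1.09, 0.68, 0.40 and 1.04, and Col1a2, for the partner chain, 1.02, 0.38, 0.89 and 0.55. Col3a1 had 0.86, 0.26, 1.01 and 0.86, so that KO alone stood low on this scale. In percentiles of windows Col3a1 was at 89.0, 62.5, 94.4 and 78.1, where KO was lowest and induced also lay below both reference arrays. Among the matrix glycoprotein loci, Fn1 had 0.67, 0.94, 0.78 and 0.85 and Sparc 0.72, 0.75, 0.80 and 1.1, both early on all arrays, whereas Postn, with 0.04, -0.72, -0.23 and -0.46, varied more. Vim had 0.996, 0.79, 0.95 and 1.05, and Thy1 had 1.16, 0.98, 0.93 and 1.23. For Fn1, Sparc, Vim and Thy1, the arrays lay within 0.38 of each other.

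**Figure D1:**
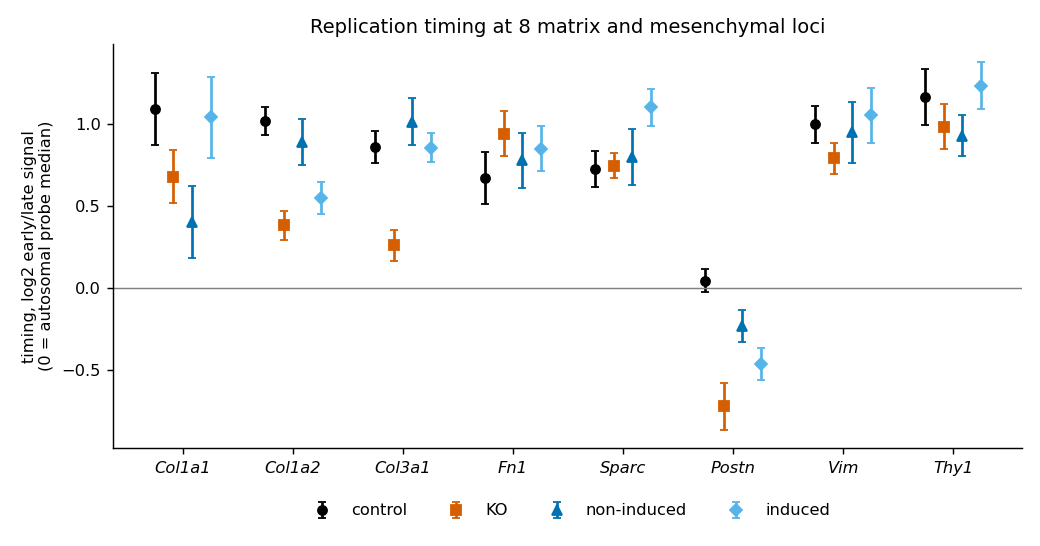
Timing (log2 early over late signal, y axis) at the 8 loci (x axis) on each of the 4 arrays; points are means over the probes of a locus and bars are SE over probes. The 7 loci other than Postn are above 0 on all arrays, while Postn is at 0.04 in control and -0.72 in KO cells.

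The loci sat in domains of different shape. Around Col1a1 (chr11:94700000-94900000), all 11 bins of 200 kb from 1 Mb before to 1 Mb after the gene were above 0 on every array, with values of 0.59 to 1.13 in control cells. Thy1 (chr9:43750000-43950000) had all 11 bins above 0 on the KO, non-induced and induced arrays and 10 on the control array, where the bin 400 kb before the gene was at -0.11. Sparc (chr11:55120000-55320000) had all 10 measured bins above 0 in control cells and 8 in each of the other groups. In KO cells the bins below 0 were those at 400 and 600 kb, at -0.06 and -0.10. Those on the mutant arrays were at 600 and 800 kb, at -0.55 and -0.69 for non-induced and -0.65 and -0.53 for induced. On the control array these loci thus lay in broad early domains.

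Col1a2 (chr6:4370000-4570000) was the opposite case, an early peak in late surroundings. On the control array it had 3 bins above 0, those at -200, 0 and 200 kb, at 0.78, 1.02 and 0.55, while the bins at -400 and 400 kb were at -0.29 and -0.50 and the lowest at -0.96. Col3a1 (chr1:45290000-45490000) had 6 adjoining bins above 0 in control cells, with the highest, 1.05, at 200 kb. Vim (chr2:13400000-13600000) had 4 adjoining bins above 0 on every array. Fn1 (chr1:71560000-71760000) lay at the edge of a domain: in control cells the bin at -400 kb was at -0.70, that at -200 kb at -0.02, the gene's own at 0.67 and that at 200 kb at 1.02. Postn (chr3:54070000-54270000) lay in a dip between early flanks, which in control cells reached 0.75 at -1000 kb and 0.82 at 800 kb, with a floor of -0.87 at -400 kb. In the order of genes along the chromosome, Col3a1 lies next to Col5a2, which encodes a further fibrillar collagen chain, Col1a2 between Bet1 and Casd1, and Postn between Trpc4 and Supt20; these neighbours were not placed on the array's build.

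**Figure D2:**
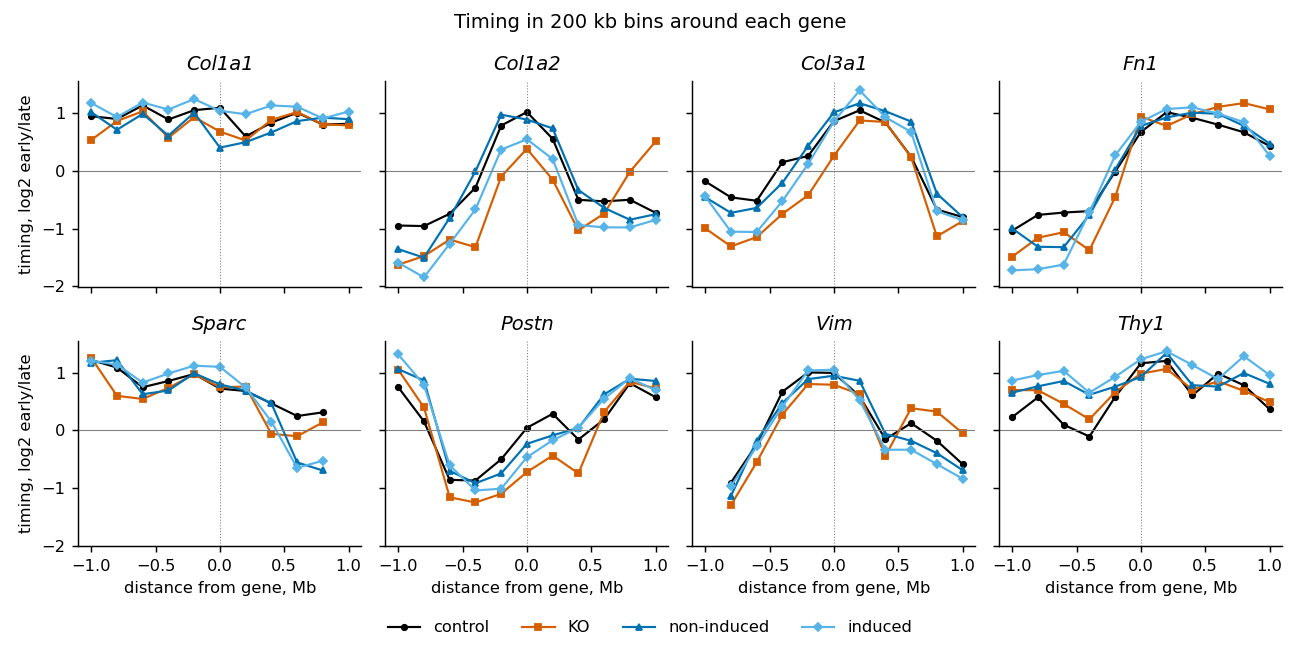
Timing (log2 early over late, y axis) in 200 kb bins against the distance from each gene (x axis, Mb), 1 panel per gene and 1 line per array; bins with under 5 probes are left out. Col1a2 is a peak of 3 bins in late surroundings, Fn1 stands on an edge, Postn lies in a dip, and Col1a1 stays above 0 throughout.

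The first comparison asks how timing differs between KO and control cells. Of the 8 loci, 3 were later in KO: Postn, Col1a2 and Col3a1, which encode a matricellular protein, a type I collagen chain and the type III collagen chain. A locus was called when its difference reached 3 times its SE and also 0.25 of the reference array's spread, taken from the 10th to the 90th window percentile; for control this size is 0.45 on the log2 scale. By the same rule 22.2% of all windows were later and 8.02% earlier, so that 3 later loci of 8 are to be read against that share. No locus was called earlier. The median difference of the 8 loci was -0.31, and that of all windows was -0.16.

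At Postn, timing on the control array was 0.04 and on the KO array -0.72. KO minus control was thus -0.77 ± 0.15 (SE over 13 probes), and 12 of the 13 probes were lower. At Col1a2 the control value of 1.02 stood against 0.38 for KO, or -0.64 ± 0.09 (SE over 15 probes), with 14 of 15 probes lower. At Col3a1 it was 0.86 against 0.26, or -0.60 ± 0.10 (SE over 19 probes), with 19 of 19 probes lower and single differences from -1.42 to -0.087. Among windows of the KO array, Col1a2 was at percentile 65.3 and Col3a1 at 62.5, against 96.1 and 89.0 in control cells, and Postn at 42.0 against 57.8. Both collagen loci remained above 0 in KO cells, whereas Postn crossed below it; its control value was itself near 0, at -0.08 as a median over probes.

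That share differed between early and late windows. All members but Postn, 7 of 8, lay among the earliest 40% of windows by the mean of the non-induced and induced arrays, a split chosen after the values were seen that does not use the arrays compared. Among those 4800 windows, 208 (4.33%) were later and 485 (10.1%) earlier in KO than in control cells, out of 2665 later and 962 earlier windows in all. Of the 7 loci there, Col1a2 and Col3a1 were later. Postn, also later, lay outside them, where 34.1% of 7200 windows were later and 6.62% earlier. The KO array was wider than the control array, with a 10th to 90th window percentile span of 2.31 against 1.81. With arrays scaled to the same spread, 13.7% of all windows were later and 6.37% earlier. The split by early windows was not repeated on scaled arrays, and the part of the spread in its shares was not tested. Of the other members, Col1a1 had a difference of -0.41 ± 0.17 (15 probes), Vim -0.21 ± 0.07 (18 probes), Thy1 -0.18 ± 0.14 (17 probes), Sparc 0.02 ± 0.10 (15 probes) and Fn1 0.27 ± 0.10 (14 probes). None of these 5 reached the call. Fn1, the gene of fibronectin, had 11 of 14 probes higher in KO cells, and Vim had 15 of 18 lower.

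The calls of Col1a2 and Col3a1 depended on the centre chosen. With each array centred on its median window, which lay below its median probe, their differences were -0.45 and -0.42, both just under the threshold, and Postn alone was called. That centring also turned the windows called from 73.5% later to 45.2% later, and quantile normalization to 51.0%; after quantile normalization all 3 loci were still called, at -0.76, -0.70 and -0.68 for Col1a2, Col3a1 and Postn. With only even probes, Postn had -0.60 ± 0.27 and was not called. The percentiles given above do not depend on the centre.

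**Figure D3:**
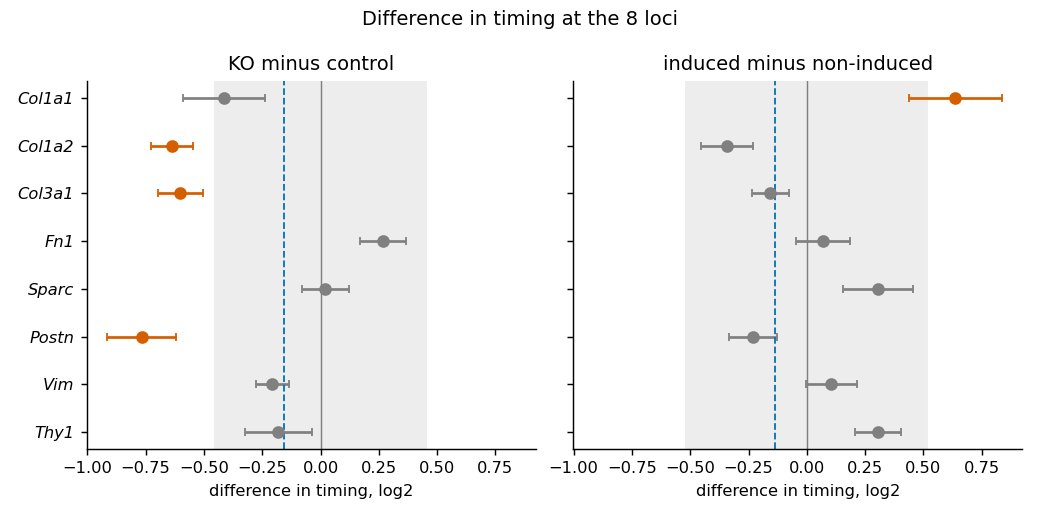
Differences in timing (log2, x axis) at the 8 loci for KO minus control and induced minus non-induced; points are means and bars SE over probes, the grey band is the size threshold, the dashed line the median window difference, and orange points are called. Postn, Col1a2 and Col3a1 lie beyond the band in KO, and Col1a1 alone in induced cells.

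The channels moved in different ways at the loci called later in KO cells. Relative to the autosomal median of each channel, the late signal was 1.07 higher at Col1a2 and 1.11 higher at Col3a1 on the KO array, and the early signal was higher too, by 0.48 and 0.56. At Postn, the early signal differed by -0.59 and the late signal by 0.13. The mean of both channels was 0.77 higher at Col1a2 and 0.84 higher at Col3a1 on the KO than on the control array, which put both at or above percentile 99.0 of windows for that quantity. Fn1, not called, was at percentile 96.3, with a mean of both channels 0.61 higher. At Postn it was -0.23, at percentile 36.1. The part of this total signal in the timing differences was not tested; after loess within arrays, which removes the trend of the ratio on total signal, the differences were -0.87 at Col1a2, -0.69 at Col3a1 and -0.95 at Postn.

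**Figure D4:**
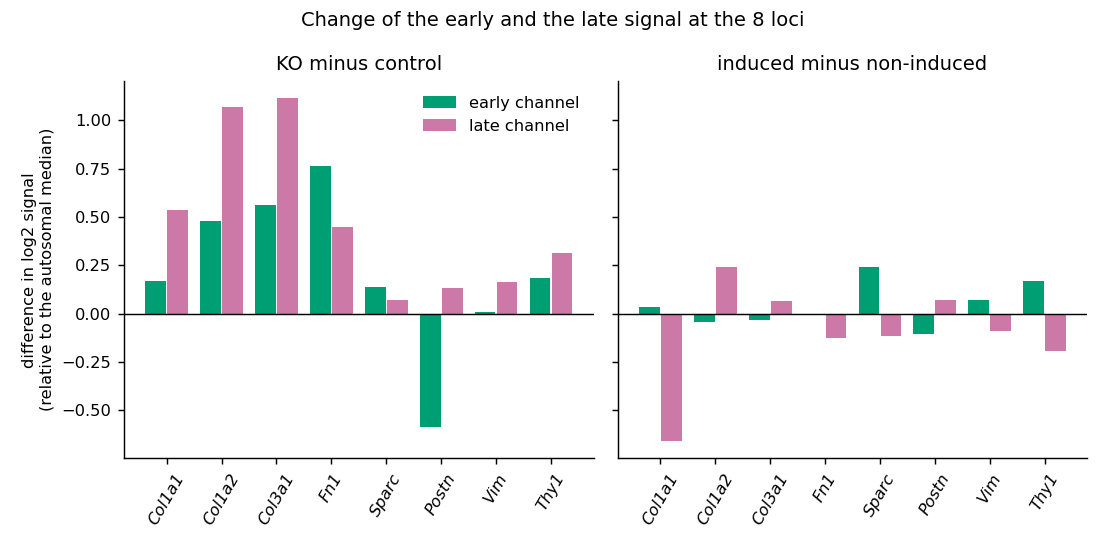
Change of the early and of the late signal (log2, y axis, relative to the autosomal median of each channel) at the 8 loci (x axis) in both comparisons. In KO cells both signals are higher at Col1a2 and Col3a1, the late one more so, while at Postn the early signal is lower; in induced cells the late signal of Col1a1 is lower by 0.66.

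In 200 kb bins around the genes, the later calls in KO cells are to be read against the timing of the bins, many of which are late: outside the earliest 40% of windows, 34.1% of 7200 windows were later and 6.62% earlier. Around Col1a2, 7 of 11 bins were later, from -1000 to 400 kb without the bin at -600 kb, the largest by -1.03 ± 0.12 (SE over 17 probes) at -400 kb. On the far side of Col1a2 the direction turned: the bin at 800 kb had -0.50 for control and -0.02 for KO, and that at 1000 kb -0.73 and 0.51, a difference of 1.23 ± 0.12 (11 probes), and both bins were called earlier. In KO cells, the bin of the gene was the only one of the early peak still above 0, with -0.10 at -200 kb and -0.15 at 200 kb. Around Col3a1, 7 of 11 bins were later, 6 of them in a row from -1000 kb to the gene; past it, the differences were -0.18, 0.01 and -0.01 at 200, 400 and 600 kb, none called, and the bin at 800 kb was later, by -0.46 ± 0.14 (SE over 17 probes). Within the locus, the 8 probes before the gene position differed by -0.87 ± 0.17 (SE) and the 11 after it by -0.41 ± 0.07.

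Around Postn, 4 of 11 bins in a row were later, from -200 to 400 kb, by -0.77 to -0.59, while the early flanks were not called. Of the remaining loci, Col1a1 had no bin called, Sparc had 2 later bins, at -800 and 400 kb, and Fn1 had 1 later bin at -400 kb and 2 earlier bins at 800 and 1000 kb. Vim had 2 earlier bins, at 800 and 1000 kb, and Thy1 had 1, at -1000 kb. After scaling all arrays to 1 spread, the later bins numbered 4 around Col1a2, 5 around Col3a1, 2 each around Postn, Col1a1 and Sparc, 1 around Vim and 0 around Fn1. Earlier bins then numbered 2 around Col1a2, 1 around Vim and 0 around Fn1 and Thy1. With the window median as centre, later bins numbered 4 around Col1a2, 4 around Col3a1, 2 around Postn, 1 around Fn1 and 0 around Sparc, and earlier bins 2 around Col1a2, 3 around Fn1, 2 around Vim and 3 around Thy1.

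The second comparison asks how timing differs between induced and non-induced mutant cells. Of the 8 loci, only Col1a1, the gene of the other type I collagen chain, was called, as earlier, at a threshold of 0.52, where 0.467% of windows were earlier and 11.9% later. Col1a1 stood at 0.40 ± 0.22 (SE) on the non-induced array and 1.04 ± 0.25 on the induced one, or 0.64 ± 0.20 higher (15 probes), with 14 of 15 probes higher. No locus was called later. The median of the 8 differences was 0.087, and that of all windows was -0.13.

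Many probes of Col1a1 were dim. Of its 15 probes, 8 were well above background on all arrays, 12 on the non-induced and 10 on the induced array, and over those 8 probes the difference was 0.35 ± 0.06 (SE), below the threshold. It was not called in 7 of 15 alternatives, among them normexp background correction (0.35), scaling all arrays to 1 spread (0.39), quantile normalization (0.54) and the median over probes (0.42), although it was above 0 in all 15. The probe at the largest distance after the gene alone differed by 2.74, and on the induced array it was not well above background. Over the locus, the late signal differed by -0.66 and the early signal by 0.03. Against the autosomal median, the mean signal of both channels at Col1a1 was -1.12 for control, -0.76 for KO, -0.47 for non-induced and -0.78 for induced. At Thy1 it was lower still on each array, at -1.42, -1.18, -1.06 and -1.07. The part of low signal in the Col1a1 difference was not tested.

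Among the others, Thy1 had 0.31 ± 0.10 (17 probes), Sparc 0.30 ± 0.15 (15 probes), Vim 0.10 ± 0.11 (18 probes), Fn1 0.07 ± 0.12 (14 probes), Col3a1 -0.16 ± 0.08 (19 probes), Postn -0.23 ± 0.10 (13 probes) and Col1a2 -0.34 ± 0.11 (15 probes). None passed the size threshold. The difference of Col1a2 was thus the lowest of the 8, with 12 of 15 probes lower in induced cells. Within 200 kb in place of 100 kb it was -0.52 ± 0.07 and was called later. The bins around Col1a2 at -400, -200, 200 and 400 kb were later, by -0.66, -0.60, -0.53 and -0.61. After scaling, 2 bins around Col1a2 were later, and with the window median as centre 0 were. In bins, Fn1 had 1 later bin, at -1000 kb, and no bin around Col3a1, Sparc, Postn, Vim or Thy1 was called. Centring on the window median turned the calls over all windows from 96.2% later to 37.4% later; then 4 bins around Col1a1 and 1 around Thy1 were earlier.

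**Figure D5:**
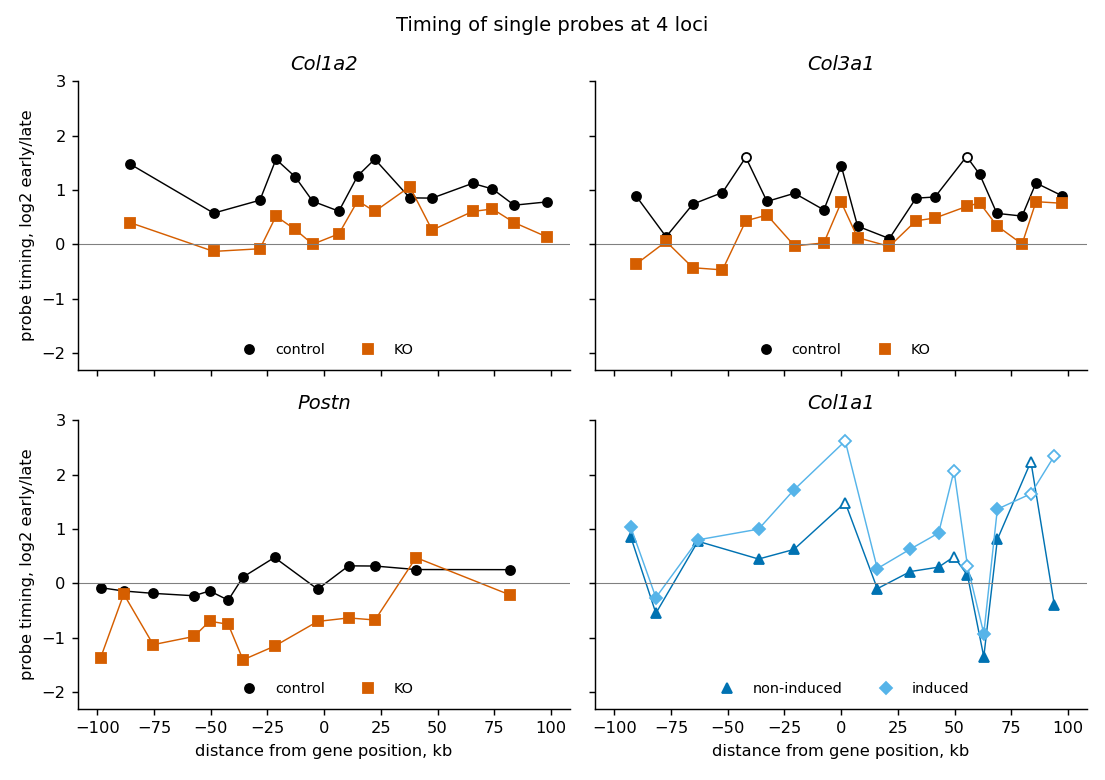
Timing of single probes (log2 early over late, y axis) against the distance from the gene position (x axis, kb); Col1a2, Col3a1 and Postn for control and KO, and Col1a1 for non-induced and induced cells. Filled symbols are well above background in both channels and open ones are not; at Col3a1 all 19 KO probes lie below control, and at Col1a1 several of the widest gaps sit at open symbols.

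The non-induced and control arrays, the 2 references, lay on different slides, so cells and slide cannot be told apart here. No locus was called, where 10.8% of windows were later and 8.17% earlier; later windows were 57.1% of those called, and 41.5% with the window median as centre. Col1a1 had the largest difference in size, -0.69 ± 0.31 (SE over 15 probes), from 1.09 in control to 0.40 in non-induced cells; it had 11 of 15 probes lower, and its SE kept it from a call, which it had at 2 times its SE. Its size fell under that of Postn with normexp, at -0.20 against -0.32, and with loess, at -0.31 against -0.45, where Postn was called later. Without these corrections Postn had -0.28 ± 0.10 (13 probes), and the others ran from -0.24 at Thy1 to 0.15 at Col3a1. At Col1a2, the control and non-induced values were 1.02 and 0.89, and for Col3a1 0.86 and 1.01, so both reference arrays lay above KO at these loci. In bins, non-induced was later than control in 2 around Fn1, 2 around Sparc and 1 around Col1a2. Non-induced was earlier in 1 bin each around Col3a1, Postn and Thy1. The largest of these differences, -1.01 ± 0.21 (SE over 6 probes) at 800 kb from Sparc, was near the -1.03 of the largest later bin in KO cells. After scaling, later bins numbered 2 around Sparc and 0 around Fn1 and Col1a2.

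Over all 4 arrays, Vim and Fn1 varied least on the log2 scale, with ranges of 0.26 and 0.27, and Thy1 and Sparc had 0.31 and 0.38. Col1a2, Col1a1, Col3a1 and Postn had ranges of 0.64, 0.69, 0.75 and 0.77. In percentiles of windows, the 3 collagen loci moved by 30.8 to 31.9 points and the other 5 by 8.84 to 15.8 points. No such range was taken over all windows, so these points have no background to be read against. On that scale Thy1 and Sparc moved least, by 8.84 and 10.8 points, and Vim and Fn1 by 13.1 points each. The array on which a collagen locus was lowest differed: it was KO for Col1a2 and Col3a1 and non-induced for Col1a1. Over all probes, the genes of the 2 chains of type I collagen thus differed in which array was lowest. At Col1a1 that array depended on the probes: KO had 0.68 ± 0.16 (SE) and non-induced 0.40 ± 0.22. With odd probes KO was the lower of these, at -0.46 from control against -0.42 for non-induced. The 2 genes also differed in surroundings, with Col1a1 in a broad early domain and Col1a2 in a narrow peak. At Col1a1, the array furthest from the others depended on the processing. With loess, the control, KO, non-induced and induced values were 0.82, 0.83, 0.51 and 1.36. With normexp they were 0.47, 0.43, 0.27 and 0.63. Over the 8 Col1a1 probes well above background on all arrays they were 0.56, 0.55, 0.14 and 0.49.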

How the data were processed

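Each array is 1 group. Per the file headers, the authors read the arrays with Agilent Feature Extraction 11.5.1.1 (the submitters' processing notes name 9.1), and the processed signal is an intensity after background subtraction, detrending and 1 linear dye factor per channel; other columns used are flags of 0 or 1. The deposited log10 ratio table is identical to the scanner files' late over early ratio in all 180880 spots of each array. Coordinates are on mm9, per the file headers.

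Timing was log2 of early over late processed signal, without control spots and flagged spots, averaged per probe and centred on the autosomal probe median. Loci were means over probes within 100 kb, windows were 200 kb with at least 5 probes, and the call rule was checked on simulated data. Apart from the planted changes, the simulated arrays shared the same centre and spread. That check therefore does not cover the differences in centre and spread between the real arrays. The 8 genes, their positions and the lists were chosen with earlier results of these data known; all 8 are named. The files pair no probe with a gene symbol, so a longer list of matrix genes, markers of other cell types and the Suv4-20h genes themselves were not analysed here. The alternatives, 15 in all, covered background, dye trend, scaling, centring, probe filters, distance, summary and thresholds. Precision is limited by 1 array per group. Python 3.11.15, numpy 2.4.6, pandas 2.3.3, R 4.3.3 and limma 3.58.1 were used.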

Additional observations from a re-analysis of the deposited data

Results flagged for a closer look

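The differences at Col1a1 had opposite signs in the 2 comparisons: KO minus control was -0.41 ± 0.17 and induced minus non-induced 0.64 ± 0.20 (SE over 15 probes), which differ by 1.05. The difference between the comparisons was not tested, each rests on 1 array per group, and over the 8 probes well above background on all arrays the values were -0.011 and 0.35.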

How the results depend on the processing

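Members later in KO cells numbered 3, and 1, Postn, with the window median as centre; the other 14 alternatives gave a count within 1.5 times 3, at most 4. None was earlier under any of the 15. Members earlier in induced cells numbered 1, and 0 with normexp, arrays scaled to the same spread, quantile normalization, probes well above background on all arrays, the median over probes, odd probes and even probes. Members later in induced cells numbered 0, and 1, Col1a2, with probes within 200 kb and with a size threshold of 0.15. The cause of these shifts was not tested. Odd and even probes leave fewer probes per locus, and a smaller threshold calls more. Over the probes well above background on all arrays, Col1a1 had an induced minus non-induced difference of 0.35 ± 0.06. Over all 15 probes it had 0.64 ± 0.20. The SE was thus smaller over the brighter probes, and the size of the difference fell below the threshold.

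The sign held under all 15 alternatives for Col1a2, Col3a1, Fn1, Postn and Vim in KO minus control timing and for Col1a1, Col1a2, Sparc, Postn and Thy1 in induced minus non-induced timing. Some of these differences became small. With the window median as centre, Vim had -0.022 in the first comparison and Postn -0.029 in the second. With arrays scaled to the same spread, Thy1 had 0.018 and Sparc 0.047 in the second. The sign changed in 6 alternatives for Sparc, 3 for Thy1 and 1 for Col1a1 in the first comparison, and in 5 for Fn1, 4 for Vim and 1 for Col3a1 in the second. Col1a1 in KO ranged from -0.56, called later with arrays scaled to the same spread, to 0.016 with loess. Of the 480 values of single levels, 131 moved by more than their SE and 2 changed sign, both Postn in control cells. No paired analysis was possible because each group has 1 array, and for the same reason no array could be left out. Dim probes limit Col1a1 and Thy1 most, where 8 of 15 and 10 of 17 were well above background on all arrays.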
